A study of Mus musculus with 12 samples.

Results

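The genes described here encode the endocytic receptor complex of absorptive epithelia: the receptors cubilin (Cubn) and megalin (Lrp2), the cubilin partner amnionless (Amn), the cargo adaptor Dab2, the receptor chaperone Lrpap1 and the endosomal chloride transporter Clcn5. They were chosen by name as 6 genes of 29527 gene names on the array, and every probe whose symbol, current or older, matched 1 of them was taken, 13 of 45281 probes. Expression was measured on 12 arrays (Illumina MouseWG-6 V2.0) of RNA from XEN cells, a stem cell line of the mouse extraembryonic endoderm. All 4 groups carried the Afp::GFP transgene, a green fluorescent protein (GFP) reporter named for the alpha-fetoprotein gene Afp, and were grown in N2B27 medium. The groups, 3 arrays each, were cells without treatment, BMP4-treated cells taken unsorted, and 2 fractions that flow sorting separated after BMP4, one positive and one negative for GFP. The sources used here give neither the dose nor the duration of BMP4. The source label of all 4 groups is an Afp::GFP transgenic XEN stem cell line, and it does not say whether this was 1 line throughout.

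Visceral endoderm, the epithelium that surrounds the early mouse embryo, feeds it by taking up maternal proteins and lipids through this complex. Cubilin has no membrane-spanning part and reaches the apical surface only with amnionless, which also carries the signals that bring the pair into coated pits. Megalin, a very large member of the low density lipoprotein (LDL) receptor family, binds many of the same ligands and is internalised through Dab2, which links its cytoplasmic tail to clathrin. Lrpap1 (receptor-associated protein, RAP) keeps newly made LDL receptor family proteins from binding ligand in the endoplasmic reticulum, and Clcn5 exchanges chloride for protons in endosomes as these acidify.

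Facts common to all arrays bear on each value below. The median scanner signal of an array lay between 53.4 and 60.9 for unsorted cells and between 22.6 and 32.4 for sorted cells, 13105 to 14737 probes were detected per array, and arrays of 1 group correlated with r between 0.994 and 0.997 across genes, which are not independent replicates. A probe counted as detected at a detection p under 0.01, and values are normalized log2 signals, so that 1 unit is a doubling of normalized signal. The labels do not say that replicates were separate cultures, so p-values measure only the spread between 3 arrays per group, a number that limits precision. All 10 markers of extraembryonic endoderm, Gata4, Gata6, Sox7, Sox17 and Pdgfra among them, were detected on all arrays of every group, with a summed linear signal of 98220 to 110500 untreated, 81350 to 84930 after BMP4, 60190 to 65020 in GFP positive and 61380 to 64770 in GFP negative cells. Of 8 pluripotency markers 2 passed the detection filter, Zfp42 and Dppa5a, while Pou5f1, Nanog and Sox2 did not; of 8 trophoblast markers 3 did (Cdx2, Gata3 and Plac1), and of 6 fibroblast markers 0 did. Cdx2 was detected in unsorted BMP4 cells (7.82) and in none of the other groups. Afp was 5.50 in untreated cells (detected on 1 of 3 arrays), 6.02 after BMP4, 9.58 in GFP positive and 7.35 in GFP negative cells. Its difference between the fractions was 2.23 ± 0.17 (SE, limma adjusted p = 6.3e-06), in the direction of the sort.

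Of the 13 probes, 7 were detected on at least 3 arrays and entered the tests: 1 each for Amn, Cubn, Lrp2 and Lrpap1, and 3 for Dab2. For Dab2 the brightest probe, 1940347, stood for the gene. The other 6 probes, 2 of Lrp2, 2 of Dab2 and both of Clcn5, were detected on none of the 12 arrays. The 2 undetected Lrp2 probes (5690750 and 6860546) ran from 36.2 to 54.8 on unsorted arrays, where the detected Lrp2 probe 5690367 ran from 105.5 to 817.5. The 2 undetected Dab2 probes (290605 and 7650112, the latter listed under the older name D630005B22RIK) ran from 39.9 to 64.5 on the same arrays. So Lrp2 rests on 1 probe of 3, and Dab2 on 3 of 5. Clcn5 was not well above background: its probe 780292 gave scanner signals of 43.9 to 49.8 untreated, 62.6 to 64.8 after BMP4, 27.2 to 42.6 in GFP positive and 38.7 to 50.4 in GFP negative cells, and its lowest detection p was 0.0406. Its second probe, 2900682, lay between 8.3 and 53.5, with a lowest detection p of 0.42. No fold is given for Clcn5, and a signal not well above background does not show that the transcript was absent.

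**Figure D1:**
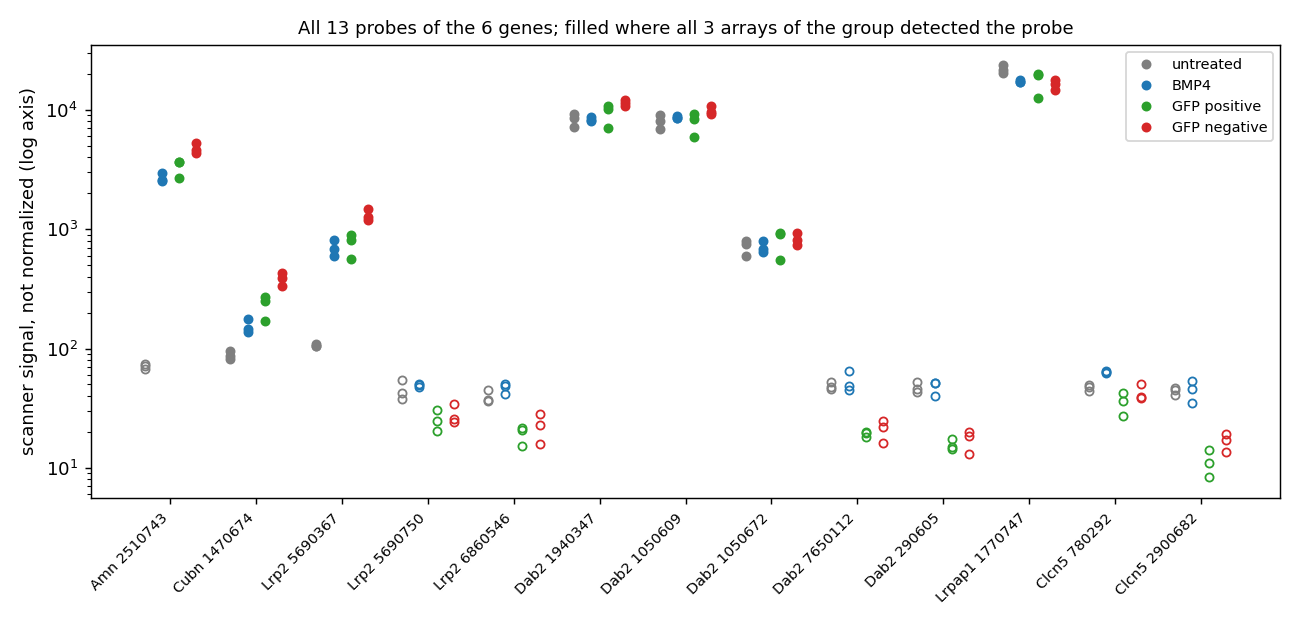
Scanner signal before normalization (log axis) of all 13 probes of the 6 genes on 12 arrays, coloured by group, with filled points where all 3 arrays of the group detected the probe. The 6 probes with open points in every group lie between 8.3 and 64.8, and only the untreated points of the Amn probe are open in an otherwise detected probe (1 of 3 arrays detected it).

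Amn, Cubn and Lrp2 all rose after BMP4, by different amounts. They were followed first in unsorted cells, where the question was what BMP4 changed. Amn was 5.10, 5.13 and 5.42 on the 3 untreated arrays and 11.23, 11.37 and 11.12 on the 3 BMP4 arrays. The groups lay far apart, and of the untreated arrays only the one at 5.42 detected the gene. The mean went from 5.21 ± 0.18 to 11.24 ± 0.13 (SD, n = 3), a fitted difference of 6.03 ± 0.10 (SE, limma adjusted p = 5.05e-14), the largest fitted rise among the 10597 genes tested. Untreated values below the lowest detected signal of their array give only a bound, and against that signal Amn was at least 54.4-fold higher. That bound holds for background-corrected signals: the fitted difference was 5.07 (33.6-fold) without background correction and 5.11 (34.5-fold) with an offset of 50. Lrp2 was 5.97, 6.13 and 6.30 untreated and 9.23, 9.00 and 9.44 after BMP4, again with no overlap. Its difference was 3.09 ± 0.12 (SE, adjusted p = 9.6e-11 in limma), 8.54-fold, and Lrp2 ranked 38th of all rises. The Lrp2 fold was 5.95 without background correction, from untreated scanner signals of only 105.5 to 109.4. Cubn was 5.71, 5.70 and 5.72 untreated and 7.00, 6.55 and 6.64 after BMP4. It rose by 1.02 ± 0.10 (SE, adjusted p = 1.42e-06 in limma), 2.03-fold, and ranked 427th. All untreated arrays detected Cubn, but its untreated scanner signals of 81 to 96.1 lay close to background, on arrays where the lowest detected normalized value was 5.42 to 5.57. In bulk RNA, more cells that express a gene and more RNA per cell cannot be told apart.

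The start regions of Amn, Cubn and Lrp2 are shown because all 3 were called higher after BMP4, as were 30.2% of all genes tested. Each window, from RefSeq (GRCm38.p6), runs from 250 bases before to 50 bases after the annotated start and is written 5′ to 3′ on the gene's strand, with capitals marking matches to 10 short motifs searched on both strands.
Amn (chr12:111270846-111271145, plus strand): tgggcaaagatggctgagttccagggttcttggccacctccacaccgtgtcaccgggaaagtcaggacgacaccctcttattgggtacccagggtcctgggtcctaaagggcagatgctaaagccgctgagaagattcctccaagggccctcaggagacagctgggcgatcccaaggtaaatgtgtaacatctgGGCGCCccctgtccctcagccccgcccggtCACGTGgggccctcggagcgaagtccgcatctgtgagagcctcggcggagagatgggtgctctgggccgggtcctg
Cubn (chr2:13491827-13492126, minus strand): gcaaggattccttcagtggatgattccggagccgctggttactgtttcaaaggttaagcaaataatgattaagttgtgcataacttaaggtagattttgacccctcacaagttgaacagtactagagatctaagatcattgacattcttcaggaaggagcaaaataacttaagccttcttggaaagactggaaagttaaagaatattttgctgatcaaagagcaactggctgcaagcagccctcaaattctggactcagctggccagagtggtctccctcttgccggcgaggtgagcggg
Lrp2 (chr2:69585980-69586279, minus strand): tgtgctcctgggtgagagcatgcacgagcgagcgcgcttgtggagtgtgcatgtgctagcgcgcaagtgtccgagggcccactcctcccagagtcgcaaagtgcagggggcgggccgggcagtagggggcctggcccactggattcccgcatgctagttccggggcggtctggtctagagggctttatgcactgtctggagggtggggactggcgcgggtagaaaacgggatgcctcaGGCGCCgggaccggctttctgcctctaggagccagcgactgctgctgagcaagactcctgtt
The motifs were the GATA element (AGATAA) and its variant (TGATAA), forkhead (TNTTTAC), HNF1 (GTTAAT), HNF4 (CAAAGTCCA), SOX (ATTGTT), CDX (TTTATNG), the GC-rich SMAD element (GGCGCC), the SMAD palindrome (GTCTAGAC) and the E-box (CACGTG). No matches overlapped. Amn held GGCGCC starting at base -56 and CACGTG starting at base -26, Lrp2 held GGCGCC starting at base -12, and Cubn held none of the 10. Lrpap1 and the second of 2 start windows of Dab2 also held GGCGCC. Neither gene was higher in unsorted BMP4 cells, while Dab2 (probe 1940347) was called higher than untreated in both sorted fractions. Whether these letters have a part in any change was not tested. Of all 32851 windows, 11.9% held GGCGCC and 7.15% held CACGTG. GC content was 62.3% for Amn, 65% for Lrp2 and 44.3% for Cubn, against a median of 52.7%. A match is a description of letters, not a binding site, and no match says only that these letters are not in the window.

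**Figure D2:**
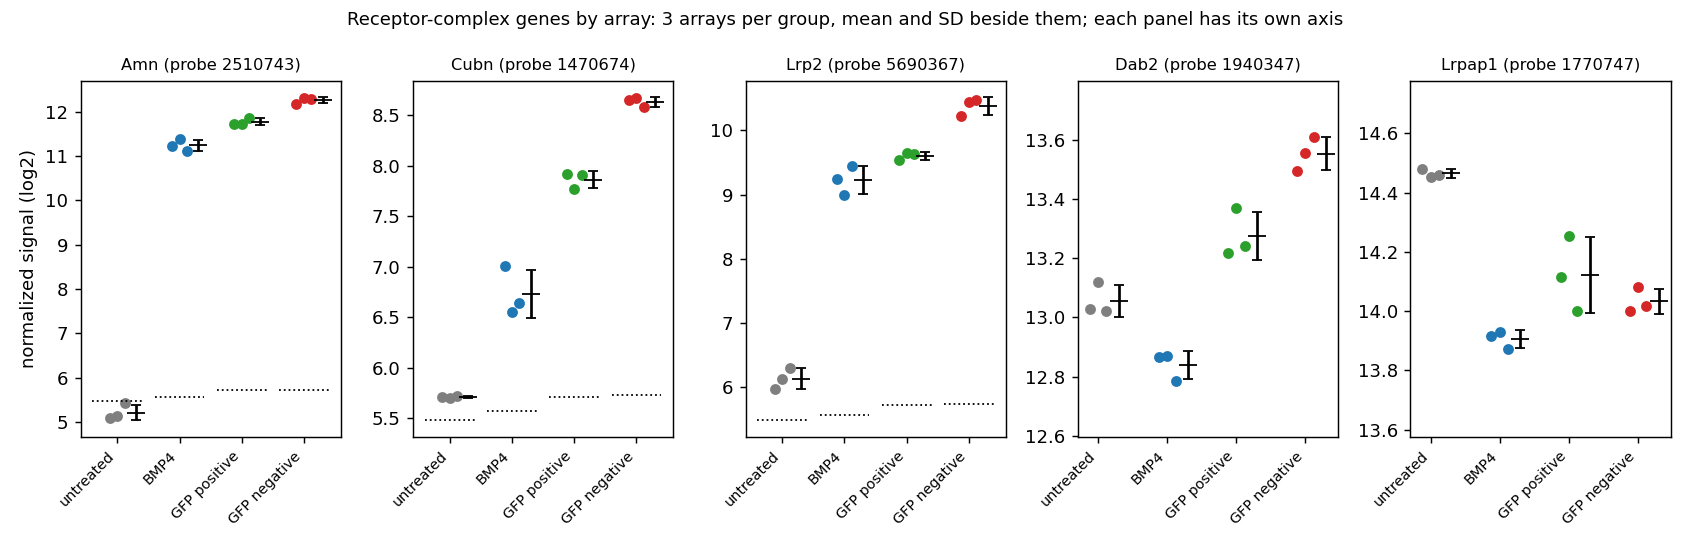
Normalized log2 signal of the 5 tested genes on each of 12 arrays (points), with the mean and SD of 3 arrays beside each group. Dotted lines in the Amn, Cubn and Lrp2 panels mark the mean of the lowest detected value on the arrays of each group, and axes differ between panels. Amn, Cubn and Lrp2 lie in the order untreated, BMP4, GFP positive, GFP negative without overlap, Dab2 spans 0.71 and Lrpap1 spans 0.56.

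The adaptor and the chaperone did not rise in unsorted cells. Lrpap1 was 14.48, 14.45 and 14.46 untreated and 13.92, 13.93 and 13.87 after BMP4, with every BMP4 array below every untreated one. It fell by 0.56 ± 0.07 (SE, adjusted p = 1.81e-05 in limma), from the brightest signal of the 13 probes. Dab2 (probe 1940347) was 13.03, 13.12 and 13.02 untreated and 12.87, 12.87 and 12.79 after BMP4. The groups did not overlap and the difference of -0.22 ± 0.07 (SE) passed (adjusted p = 0.0165 in limma), but it was small. The other 2 probes of Dab2 gave -0.10 ± 0.08 (probe 1050609, limma adjusted p = 0.291) and -0.14 ± 0.08 (probe 1050672, limma adjusted p = 0.179), and neither passed. Over all 15448 detected probes 56.6% were called after BMP4 and 4.42% between the fractions. Scale normalization took the call on probe 1940347 away (adjusted p = 0.181), as did averaging the 3 probes (adjusted p = 0.0572). Leaving out replicate 2 of the untreated arrays did so too (adjusted p = 0.065), and so did leaving out replicate 3 of the BMP4 arrays (adjusted p = 0.0569). Its alternatives spanned 0.0114 to 0.181.

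In all, 3 of the 5 tested genes were higher after BMP4 and 2 were lower, with a median of 1.02, against a median of 0.03 over all genes. Amn, detected on 1 untreated array, passed the detection filter only through BMP4-treated groups. The filter thus favoured its rise, and the median only describes these 5 genes. BMP4 changed 58.9% of the 10597 genes tested, 30.2% up and 28.7% down, and the arrays of the 2 groups did not overlap in 61.3%, so that being called is common here. The sizes of the rises of Amn and Lrp2, not the calls, set them among the largest changes. Of the 10 listed visceral endoderm markers 9 were called higher after BMP4 and 1, Ttr, lower (Apoa1 and Rbp4 were detected on 0 untreated arrays). Their summed linear signal, in which Spink1 (8.92 untreated and 12.59 after BMP4 on the log2 scale) and Ttr (12.55 and 12.33) were the brightest after BMP4, was 7196 to 7472 untreated and 14780 to 15400 after BMP4. The 3 tested trophoblast markers went in opposite directions: Cdx2 (4.55 untreated and 7.82 after BMP4) and Plac1 (4.93 and 6.96) were detected on 0 untreated and 3 BMP4 arrays, and Gata3 (7.70 and 5.10) on 3 untreated and 0 BMP4 arrays. Their sum was 241.9 to 272.9 untreated and 375.8 to 398 after BMP4. Of the 10 extraembryonic endoderm markers 6 were called lower after BMP4, 1 was called higher (Pdgfra, 0.21) and 3 were not called. The part of any of these cell types in these differences was not tested.

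The sort asked how BMP4-treated cells with and without the Afp reporter differ. Amn, Cubn and Lrp2 were lower in the GFP positive fraction, the one with more Afp. Cubn was 7.92, 7.77 and 7.91 in GFP positive and 8.65, 8.67 and 8.58 in GFP negative cells, with no overlap. The difference of -0.77 ± 0.10 (SE, adjusted p = 0.000542 in limma) makes Cubn 1.71-fold higher in the GFP negative fraction, and it ranked 28th among differences of that direction. Lrp2 was 9.53, 9.65 and 9.63 in GFP positive and 10.22, 10.44 and 10.47 in GFP negative cells. Its difference was nearly the same size, -0.77 ± 0.12 (SE, adjusted p = 0.00141 in limma). Amn was 11.71, 11.73 and 11.86 in GFP positive and 12.18, 12.30 and 12.29 in GFP negative cells. The fractions did not overlap, the difference was -0.49 ± 0.10 (SE, adjusted p = 0.00988 in limma), and it missed the threshold without GFP positive replicate 1 (adjusted p = 0.0507). Its alternatives spanned 0.000488 to 0.0507.

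Dab2 was called lower in the GFP positive fraction, but the call depended on single arrays. Probe 1940347 was 13.22, 13.37 and 13.24 in GFP positive and 13.50, 13.56 and 13.61 in GFP negative cells, without overlap, and differed by -0.28 ± 0.07 (SE, adjusted p = 0.0335 in limma). The call was lost without GFP positive replicate 1 (adjusted p = 0.141) or 3 (adjusted p = 0.105), without GFP negative replicate 1 (adjusted p = 0.0533), 2 (adjusted p = 0.113) or 3 (adjusted p = 0.129), with the mean of the 3 probes (adjusted p = 0.062) and with only the sorted groups fitted (adjusted p = 0.0571). Its alternatives spanned 0.0155 to 0.141. Probe 1050609 gave -0.31 ± 0.08 (limma adjusted p = 0.0324) and probe 1050672 gave -0.07 ± 0.08 (limma adjusted p = 0.719). Lrpap1 was 14.11, 14.25 and 14.00 in GFP positive and 14.00, 14.08 and 14.02 in GFP negative cells, so its groups overlapped. The difference of 0.09 ± 0.07 (SE) did not pass (adjusted p = 0.565 in limma), with a 95% interval from -0.07 to 0.25.

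So 4 of the 5 tested genes were lower in GFP positive cells, with a median of -0.49, against -0.01 over all genes tested. In this comparison 5.39% of the genes tested were called, 2.32% lower and 3.07% higher in GFP positive cells, and the fractions did not overlap in 27.4%; for the 5 genes they did not overlap in 4. The count of all genes called was 571, and it was 289 without GFP positive replicate 1, 356 without GFP positive replicate 2, 306 without GFP negative replicate 2 and 353 without GFP negative replicate 3. Of the 10 visceral endoderm markers 3 were called higher in GFP positive cells (Afp 2.23, Trf 1.76 and Apoa1 0.61), 3 were called lower (Spink1 -0.59, Apoe -0.34 and Rbp4) and 4 were not called. The cells were sorted on the Afp reporter, so the call on Afp only follows the sort. Rbp4 was detected on 0 GFP positive arrays and 1 GFP negative array, so no size is given for it. Summed signals of the 10 markers, which weight the brightest genes most, were 18760 to 20370 in GFP positive and 20300 to 21280 in GFP negative cells. Those of the trophoblast markers were 315.6 to 333.5 and 314.3 to 379.9. Their part in the result was not tested.

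**Figure D3:**
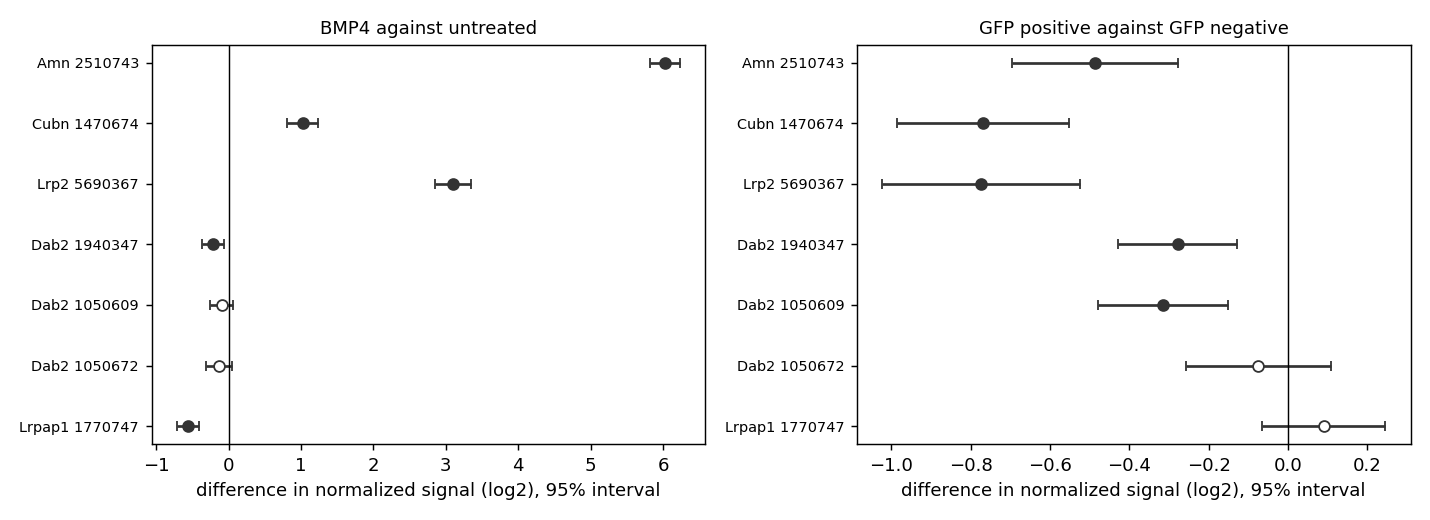
Fitted difference in normalized log2 signal with its 95% interval for the 7 detected probes, BMP4 against untreated on the left and GFP positive against GFP negative on the right, with filled points at an adjusted p under 0.05. Amn, Lrp2 and Cubn lie to the right of 0 after BMP4 (6.03, 3.09 and 1.02) and to the left of 0 in the sort (-0.49, -0.77 and -0.77), and the horizontal scales differ.

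The 4 groups in order of level put untreated cells lowest and GFP negative cells highest for Amn, Cubn and Lrp2. For these 3 genes no 2 neighbours in that order (untreated, unsorted BMP4, GFP positive, GFP negative) overlapped in normalized signal. Scanner signals of unsorted BMP4 and GFP positive arrays did overlap. They were 2539.5 to 2979 and 2680.7 to 3681.7 for Amn, 601.3 to 817.5 and 561.9 to 891.9 for Lrp2, and 137.2 to 175.6 and 170.3 to 267.7 for Cubn. The step between these 2 groups was not tested. Group means spanned 2.92 for Cubn and 4.25 for Lrp2. The fitted span of 7.04 for Amn starts from untreated arrays of which 1 of 3 detected the gene, so that its size depends on the background setting. Dab2 (probe 1940347) ran from unsorted BMP4 through untreated and GFP positive to GFP negative, a span of 0.71 with no overlap between neighbours. Lrpap1 ran from unsorted BMP4 through GFP negative and GFP positive to untreated, a span of 0.56 in which only the fractions overlapped each other.

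Set against untreated cells, which were not sorted, both fractions stood further away than unsorted BMP4 cells for the 3 receptor genes. Amn was at least 78.3-fold higher in GFP positive and at least 109.8-fold higher in GFP negative cells (limma adjusted p = 1.27e-14 and 6.64e-15), on the same terms as above. Without background correction the fitted Amn differences were 5.59 (48.1-fold) and 6.07 (67.3-fold), both smaller than these bounds. Lrp2 was higher by 3.47 ± 0.12 and 4.25 ± 0.12 (SE, limma adjusted p = 1.29e-11 and 2.03e-12). Cubn, which rose 2.03-fold in unsorted cells, was 4.44-fold higher in GFP positive and 7.58-fold higher in GFP negative cells (limma adjusted p = 3.63e-10 and 1.75e-11). Without background correction the GFP negative value was 4.87-fold, and with an offset of 50 it was 4.99-fold. Lrpap1 was lower in both, by differences of -0.34 ± 0.07 and -0.43 ± 0.07 (SE, limma adjusted p = 0.000727 and 0.000102). Dab2 was higher by 0.50 ± 0.07 in GFP negative cells (adjusted p = 1.97e-05 in limma). In GFP positive cells the Dab2 difference of 0.22 ± 0.07 (adjusted p = 0.0113 in limma) did not pass with scale normalization (adjusted p = 0.41) or when GFP positive replicate 2 was left out (adjusted p = 0.0572). Its alternatives spanned 0.00768 to 0.41. Probe 1050609 of Dab2 gave 0.01 ± 0.08 in GFP positive cells (limma adjusted p = 0.867), and its arrays overlapped. Probe 1050672 gave 0.29 ± 0.08 there (limma adjusted p = 0.00672). In GFP negative cells these 2 probes gave 0.33 ± 0.08 and 0.37 ± 0.08 (limma adjusted p = 0.00139 and 0.00141).

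These comparisons share their untreated arrays with each other and with the first. They called 73.7% (GFP positive, 37.7% higher and 35.9% lower) and 74.7% (GFP negative, 38.5% higher and 36.2% lower) of the genes tested, and arrays did not overlap in 76.8% and 77.6%, so that the calls on all 5 tested genes, 4 higher and 1 lower in each, are read against a background where most genes were called. With scale normalization 39.6% of the genes called in GFP positive cells were higher, against 51.2% as reported. Sorting moved with the groups here and cannot be told apart from the fraction itself. For all 5 tested genes the unsorted BMP4 mean lay below the means of both fractions. It lay between those of the fractions in 9.17% of all genes tested, below both in 44.7% and above both in 46.2%. The labels do not say that sorted and unsorted cells came from the same cultures.

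The genes most like each receptor gene were ranked by Pearson's r over the 12 arrays among 3007 other genes whose group means also spanned at least 1. For Amn they were Plac8 (0.9996), 4933402E13Rik (0.997), Nr6a1 (0.997), Cited1 (0.996) and Grb7 (0.996). For Lrp2 they were the transcription factor gene Hhex (0.994), LOC433182 (0.992), the exocyst gene Exoc6 (0.991), MGC68323 (0.991) and the glutathione peroxidase gene Gpx2 (0.990). For Cubn they were the collagen gene Col27a1 (0.990), Sec14l2 (0.990), the coagulation factor gene F10 (0.989), Rbm14 (0.987) and Agfg1 (0.986). Amn and Lrp2 correlated at 0.987 (Lrp2 ranked 43 of 3007 for Amn), Cubn and Lrp2 at 0.909 (Lrp2 ranked 580 for Cubn) and Amn and Cubn at 0.858 (Cubn ranked 549 for Amn). Cubn was 6.73 ± 0.24 in unsorted BMP4 cells against 7.86 ± 0.08 and 8.63 ± 0.05 (SD) in the fractions. The arrays share their normalization and their 4 group steps, so these are descriptions of the pattern.

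The tested ligands of megalin and cubilin were mostly higher after BMP4. Of 25 listed ligands and cargo proteins 14 were tested, 10 rose and 4 fell, with a median of 1.37. All 14 were called, against 58.9% of all genes tested (30.2% higher). Rbp4, Apoa1, Apob, Apom and Ambp were detected on 0 untreated arrays and passed the detection filter only through BMP4-treated groups. The filter thus favoured rises, so the count and the median do not describe the listed ligands as a class. The visceral endoderm markers hold 5 of the 14, Ttr, Apoa1, Apoe, Rbp4 and Trf. Apolipoprotein E (Apoe) rose by 3.18 ± 0.09. No untreated array detected apolipoproteins M (Apom, at least 5.19-fold higher) and A1 (Apoa1, at least 5.37-fold) or the alpha-1-microglobulin precursor gene Ambp (at least 2.25-fold). The 4 that fell were clusterin (Clu, -1.49), the vitamin B12 carrier gene Tcn2 (-0.93), the plasminogen activator gene Plat (-0.69) and transthyretin (Ttr, -0.22), all 4 named after their values were seen. Between the fractions 5 of 14 were higher in GFP positive cells and 4 lower, with a median of 0.06, 64.3% called against 5.39% of all genes. Transferrin (Trf) was higher by 1.76 ± 0.13, the heme carrier hemopexin (Hpx) by 1.12 ± 0.12, and apolipoprotein B (Apob), detected on 1 GFP negative array, was at least 1.81-fold higher. Rbp4, which carries retinol, was called lower but was detected on 1 GFP negative and 0 GFP positive arrays, its GFP negative mean (5.65) being lower than any detected value on those arrays, so no fold is given. The count of 4 lower was 2 with scale normalization, without a detection filter, and without GFP positive replicate 2 or 3 or GFP negative replicate 2 or 3.

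Other receptors of the LDL receptor family and related sorting receptors did not move as a block. Of 18 listed, 12 were tested. After BMP4 2 rose and 5 fell, with a median of -0.21, and the 58.3% called was close to the 58.9% of all genes. The reelin receptor gene Lrp8 (1.38 ± 0.09) rose, and the immunoglobulin and albumin receptor gene Fcgrt, not detected untreated, was at least 1.96-fold higher. Lrp4, known from the neuromuscular junction, fell by 2.20 and Lrp12 fell by 1.26. Between the fractions 25% of the 12 were called, against 5.39% of all genes tested. Fcgrt (0.99 ± 0.10) and the very low density lipoprotein receptor gene Vldlr (0.76 ± 0.07) were higher in GFP positive cells, opposite in sign to Lrp2, and Lrp8 (-0.40 ± 0.09, adjusted p = 0.0184 in limma) was lower. That last call was lost without GFP positive replicate 1 (adjusted p = 0.095) or GFP negative replicate 2 (adjusted p = 0.0672) or 3 (adjusted p = 0.0759), under scale normalization (adjusted p = 0.0621) and for the mean of its probes (adjusted p = 0.0612).

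The coat and sorting machinery on which the receptors depend showed no excess of calls after BMP4 over all genes. Of 20 listed clathrin coat and adaptor genes 18 were tested, and 4 rose and 5 fell after BMP4, with a median of 0.03 and 50% called, against 58.9% of all genes. Myosin VI (Myo6), a motor that moves endocytic vesicles inward from the apical surface, rose by 1.25 ± 0.08 and the adaptor subunit gene Ap2a2 by 0.51 ± 0.08. The clathrin light chain gene Cltb fell by 1.09 and the adaptor subunit gene Ap2m1 by 0.63. The count of 5 that fell was 2 without untreated replicate 2, and 3 without BMP4 replicate 2 or 3, without a detection filter, or with detection on at least 6 arrays. Between the fractions 0 of 18 passed in limma (5 at an unadjusted p under 0.05), against 5.39% of all genes tested. In GFP positive cells 1 was called higher without GFP negative replicate 3, with no background correction or with an offset of 50. Of 18 tested endosome sorting and recycling genes of 20 listed, 3 rose and 6 fell after BMP4, with a median of -0.11 and again 50% called. Appl1, which marks early endosomes below the apical membrane, rose by 0.54 ± 0.08, and Ehd4 fell by 0.45. No BMP4 array detected Eea1 (at least 1.47-fold lower) or Rab11fip2 (at least 1.19-fold lower). Between the fractions Rab11fip5 (0.44 ± 0.08) was higher and Rab4a (-0.40 ± 0.08) lower in GFP positive cells. These were the 2 of 18 that passed, 11.1% against 5.39% of all genes tested. The count of lower genes was 2 without GFP positive replicate 3, with no background correction, an offset of 50, array weights or detection on at least 6 arrays. It was 3 with the mean of the probes and 0 at an adjusted p under 0.01.

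Genes that acidify endosomes mostly fell. Clcn5 itself was not detected, but of 19 listed chloride transporter and proton pump genes 16 were tested, and 13 fell and 1 rose after BMP4, with a median of -0.41, against 0.03 over all genes, of which 28.7% fell. Ostm1, the partner of the lysosomal transporter Clcn7, fell by 1.09, the pump subunit gene Atp6v0b by 0.78, and the accessory subunit genes Atp6ap1 by 0.61 and Atp6ap2 by 0.64. The 1 that rose was Atp6v0a1 (0.30 ± 0.08), named after its value was seen. Between the fractions 1 of 16 was called (6.25%, against 5.39% of all genes tested), Atp6ap2, with a difference of -0.28 ± 0.07 (adjusted p = 0.0453 in limma). That call was lost without GFP positive replicate 1 (adjusted p = 0.195) or 3 (adjusted p = 0.0905), without GFP negative replicate 1 (adjusted p = 0.0893), 2 (adjusted p = 0.116) or 3 (adjusted p = 0.158) and with the mean of its 5 probes (adjusted p = 0.417).

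**Figure D4:**
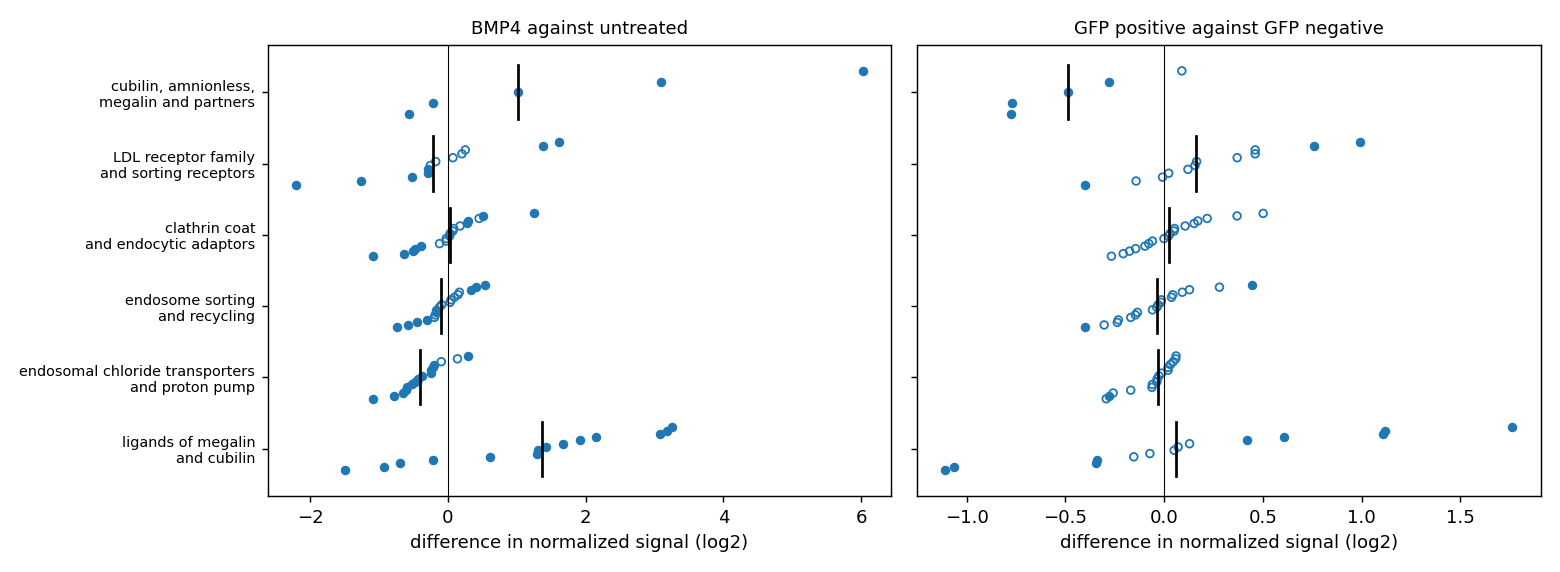
Difference in normalized log2 signal of each tested gene, in a row for the 5 receptor-complex genes and a row for each of 5 related lists, BMP4 against untreated on the left and GFP positive against GFP negative on the right. Filled points passed an adjusted p under 0.05, black bars are medians, and the vertical spread within a row only separates points. After BMP4 the medians run from -0.41 for chloride transporters and proton pump to 1.37 for ligands, and between the fractions from -0.49 for the receptor complex to 0.16 for the LDL receptor family.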

How the data were processed

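Per the file headers, the deposited scanner table was exported from BeadStudio 3.4.0 with no normalization. Its deposited columns give each probe's average bead brightness as an intensity, and a fraction equal to 1 minus the detection p. The authors' processed table was not used here, since no table given pairs its probe names with genes; the submitters' processing notes also name lumi. Background was corrected from the detection p in limma 3.58.1 (R 4.3.3), with 16 added, and the log2 values were quantile normalized. A probe was kept when 3 or more arrays had a detection p below 0.01, which left 15448 of 45281. Symbols were updated through RefSeq, and each of 10597 genes took its brightest kept probe. Among 45281 probe symbols, 22864 equalled a current symbol, 11917 matched 1 synonym and 10500 were kept as given.

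Means of the 4 groups were fitted to the 12 arrays with lmFit and eBayes, and p-values were Benjamini-Hochberg adjusted over all genes tested. Probes that do not stand for their gene were fitted and adjusted over all kept probes. For a gene detected on 0 arrays of a group, or on 1 or 2 with its mean below what counted as detected, its values were set to the lowest detected value of each array, which gives a bound. Each bound holds only for the background correction and offset used here. The fit was tested on simulated data. The genes, lists and tests were chosen with earlier results of these data known. Named genes are all 6 genes with every probe, up to 4 called genes with the largest change per list in the first 2 comparisons, and the 5 most like each gene whose group means span at least 1. Alternatives were the background correction, offset, normalization, detection filter, choice of probe, groups fitted, array weights, replicate block, an adjusted p under 0.01 and leaving out each array.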

Additional observations from a re-analysis of the deposited data

How the results depend on the processing

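Of 340 values of the 5 tested genes under the alternatives, 323 kept their direction and their side of the threshold, 17 kept only the direction, and 16 of those 17 were Dab2. After BMP4 Dab2 was -0.14 with scale normalization, -0.15 with the mean of its probes and -0.22 at an adjusted p under 0.01, and -0.23 to -0.18 with 1 array left out, so that 1 of the 5 genes was called lower in each of those 3 settings and 1 to 2 with 1 array left out. In the sort Dab2 was -0.22 with the mean of its probes and -0.28 with only the sorted groups or at an adjusted p under 0.01, and -0.32 to -0.25 with 1 array left out, where Amn was -0.53 to -0.46 and 2 to 4 genes were called lower. In GFP positive against untreated cells Dab2 was 0.082 with scale normalization, 0.22 at an adjusted p under 0.01 and 0.17 to 0.25 with 1 array left out. The count of genes called in the sort, 571, was 287 with scale normalization, 918 with array weights, 240 at an adjusted p under 0.01 and 289 to 445 with 1 array left out. The cause of these changes was not tested. Without background correction or with an offset of 50, differences from untreated cells shrank: Amn after BMP4 to 5.07 and 5.11, Cubn to 0.68 and 0.70 and Lrp2 to 2.57 and 2.60. In folds the reported value was 1.89 to 1.96 times these for Amn in its 3 comparisons with untreated cells. It was 1.56 and 1.52 times for Cubn in GFP negative cells and 1.44 and 1.41 times for Lrp2 after BMP4. No call changed. Scale normalization moved the median of all genes to -0.14 and -0.10 in GFP positive and GFP negative against untreated cells, where the share of called genes that were higher went from 51.2% to 39.6% and from 51.5% to 43.3%. Same-numbered arrays of the compared groups did not deviate together throughout (r of 0.152, 0.127 and -0.01 between the fractions, and -0.05, -0.04 and -0.01 between BMP4 and untreated). Differently numbered arrays of the fractions gave r of -0.197 to 0.0782. From 3 arrays per group these values cannot show whether the numbers pair them. With the replicate number as a block 6189 and 503 genes were called in the first 2 comparisons, and the block changed no call of the 5 genes, while Atp6ap2 between the fractions lost its call (adjusted p = 0.0514). Signal over background limits Clcn5, 2 probes each of Lrp2 and Dab2, and the untreated levels of Amn, Cubn and the detected Lrp2 probe.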
